A study of Mus musculus with 12 samples.

Results

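The regions described here are stretches of open chromatin that were listed for Sox9 Low cells and for no other sorted population of the mouse intestinal epithelium. Peaks of the 4 deposited lists (Low, Negative, Sublow and High) were joined where they shared 1 bp or more or lay end to end, which gave 82365 regions, and a region with a Low peak and no peak of another list was taken as a member. There were 5283 members, which was 6.41% of all merged regions and 9.19% of the 57486 regions that Low held. Presence in the lists chose the members, so it is a description and not a finding. Absence of a peak means that none was listed, and does not show that the DNA was closed.

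The cells came from C57Bl/6 mice with an EGFP reporter of Sox9, and were sorted by reporter level into the populations Sox9 Low, Sox9 Negative, Sox9 Sublow and Sox9 High. Each population had 3 libraries of Omni-ATAC-seq, which reads out open chromatin through its cutting by Tn5 transposase, 12 libraries in all, and is represented by 1 consensus list on the mm9 build. The labels give 12000 cells collected per population, state no age and no treatment, and do not say whether the libraries came from separate animals. Read depth is unknown and no value below has a replicate error. The intervals given are exact 95% binomial intervals, which cover counting error only and treat regions as independent.

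Sox9 is a transcription factor of the intestinal crypt and a target of Wnt signalling. In earlier work with such reporter mice, low reporter levels marked cells rich in crypt base stem cells, which divide and give rise to all lineages of the epithelium. Negative cells were mostly differentiated, Sublow cells were rich in transit-amplifying progenitors, and High cells in secretory cells of the enteroendocrine kind. Open regions away from gene starts often act as enhancers, whose accessibility changes more between cell types than that of promoters. An mm9 genome and an mm9 annotation were not used here, so no member was assigned to a gene, promoter, exon, motif or sequence, and the population labels were not checked against marker genes.

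Members were narrow. Each consisted of 1 Low peak, and the median width was 205 bp (interval of the median 202 to 209), with quartiles of 166 and 276 bp and a range from 1 to 944 bp. Together they covered 1.23 Mb, or 4.08% of the 30.1 Mb in the Low list. There were 683 members under 150 bp (12.9%), 1807 from 150 to 199 bp, 1756 from 200 to 299 bp, 903 from 300 to 499 bp and 134 of 500 bp or more (2.54%). At the lower end, 57 members were under 50 bp, shorter than the DNA wrapped round a nucleosome.

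The width of the Low peak differed with the lists that shared its region. Its median width was 205 bp in the members, 236 bp in regions of Low and High alone (n = 4946 Low peaks), 317 bp in regions of Sublow and Low alone (n = 5928) and 647 bp in regions of all 4 lists (n = 27961). Low peaks in regions that lacked only High had a median of 344 bp, and those in regions that lacked only Negative had 409 bp. The intervals of these 6 medians did not overlap. Both small classes that Low shared with Negative but not with Sublow had narrow Low peaks as well, with 188.5 bp in regions of Negative and Low alone (n = 262, 183 to 203) and 211 bp in regions that lacked only Sublow (n = 294, 202 to 224), and both intervals overlapped that of the members. Sharing with Sublow and sharing with High thus went with different Low peak widths, although each pair consists of neighbours on the reporter scale. Peak width was the only measure of size in the lists, and the part of library depth in it was not tested.

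**Figure D1:**
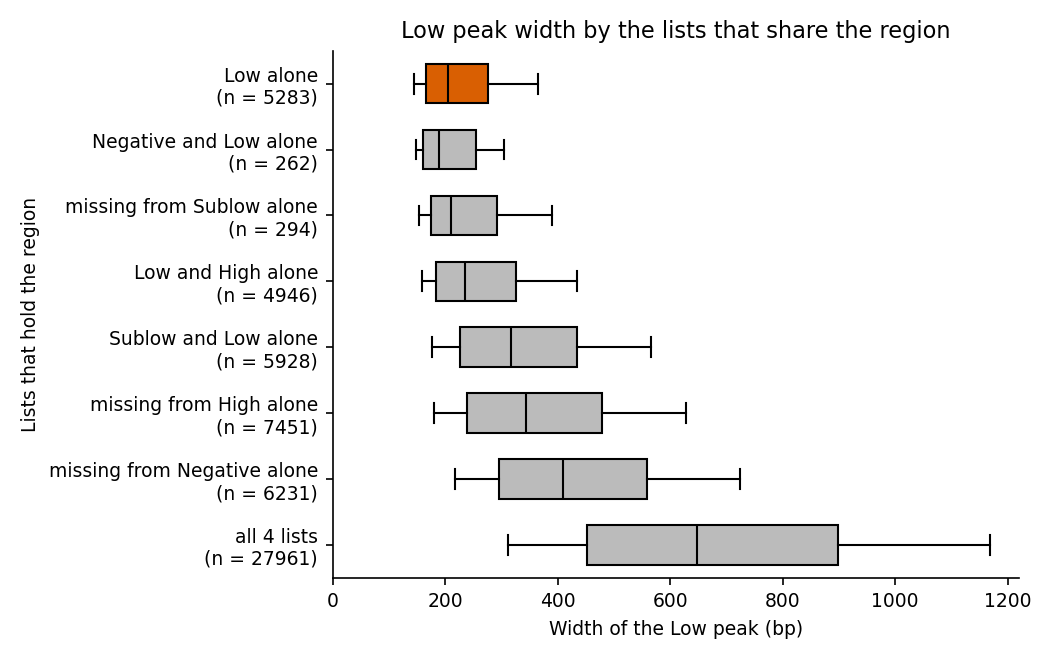
Width of the Low peak in bp (horizontal axis), grouped by the lists that hold its region. Boxes span the quartiles, the line is the median, and whiskers reach the 10th and 90th percentiles over n Low peaks. The median is 205 bp in regions of Low alone, lies lower at 188.5 bp in regions of Negative and Low alone, and is 647 bp in regions of all 4 lists.

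The share of Low peaks without a partner in another list was lower in each wider class. Of Low peaks under 150 bp, 683 of 1482 were members, a share of 46.1% (43.5 to 48.7%). The share was 29.4% from 150 to 199 bp, 19.6% from 200 to 249 bp, 14.3% from 250 to 299 bp, 7.57% from 300 to 399 bp, 3.37% from 400 to 499 bp and 1.15% from 500 to 699 bp. Of the 13802 Low peaks of 700 bp or more, 12 were members, or 0.0869% (0.0449 to 0.152%). In Negative, Sublow and High the share was likewise lower in each wider class, so this was not particular to Low. A wider peak meets a peak of another list more easily under a rule of 1 bp, and the part of this was not tested.

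At equal peak width, Low lay between the other lists in its share of peaks without a partner. From 200 to 249 bp that share was 19.6% in Low (18.5 to 20.7%), 25.2% in Negative (23.9 to 26.6%), 7.50% in Sublow (6.75 to 8.31%) and 44.2% in High (42.9 to 45.6%). From 300 to 399 bp it was 7.57% in Low, 9.97% in Negative, 1.99% in Sublow and 29.8% in High. Under 150 bp the order of Low and Negative was the other way round, at 46.1% in Low and 35.1% in Negative (33.4 to 36.9%). High stood at 50.5% in that class (48.7 to 52.2%).

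**Figure D2:**
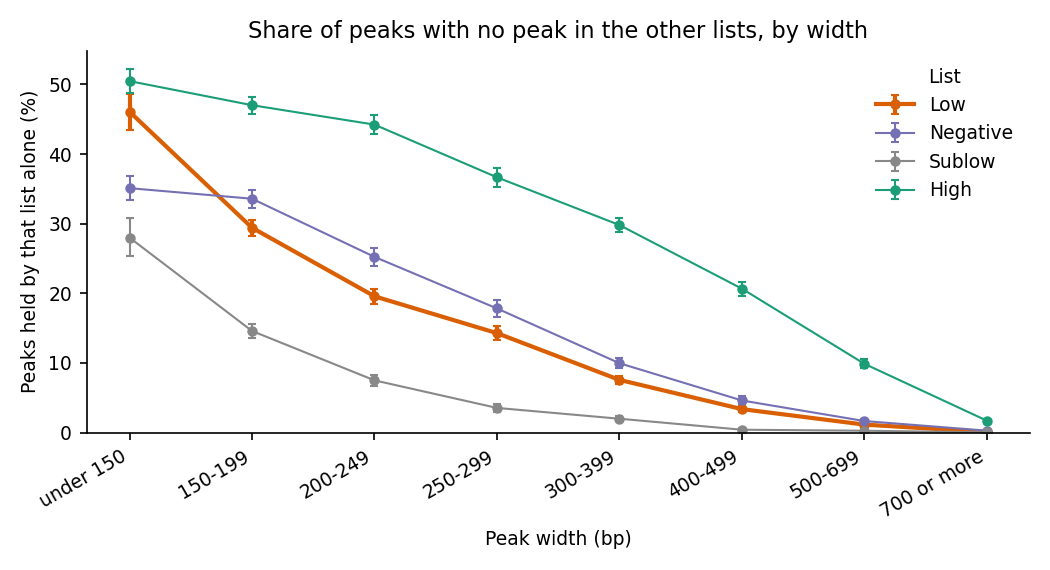
Share of a list's peaks, in percent, that lie in a region no other list holds (vertical axis), by peak width in bp (horizontal axis), for Low, Negative, Sublow and High. Bars are exact 95% binomial intervals. The Low share goes from 46.1% under 150 bp to 1.15% at 500 to 699 bp, below High in every width class.

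The 10 widest members show the sites where a broad Low peak had no counterpart. The widest covered 944 bp on chromosome 5 (chr5:35621575-35622518) and lay 82.1 kb from the nearest region of another list, one that only Negative lacked. On chromosome 12, a member of 899 bp (chr12:76408981-76409879) had its nearest other region, a peak of Sublow alone, at 47.95 kb, and a member of 889 bp (chr12:4188335-4189223) had a peak of High alone at 8.94 kb. Chromosome 11 held a member of 830 bp (chr11:85613184-85614013) and one of 755 bp (chr11:52732750-52733504), and the region nearest to each was held by Low and High alone, at 12.1 and 37.9 kb. At none of these 5 sites was the nearest other region one of all 4 lists.

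The others of these 10 were mixed in their surroundings. A member of 759 bp (chr6:147292174-147292932) and one of 735 bp (chr13:36959589-36960323) each had a peak of High alone as the nearest other region, at 30.5 and 37.5 kb. A member of 750 bp (chr8:72411324-72412073) and one of 743 bp (chr10:67992031-67992773) lay 4.80 and 11.2 kb from a region of all 4 lists, and each also had another member within 8 kb, at 7387 and 6959 bp. The tenth, of 726 bp (chr17:28914325-28915050), lay 1.96 kb from a peak of Negative alone. None of the 10 was within 1 kb of a region of another list. The share was 16.4% of all members and 8.96% of members of 500 bp or more (4.71 to 15.1%), so 10 sites are too few to show a difference.

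Most members lay over 1 kb from the regions of other lists. The median gap to the nearest such region was 5305 bp (5060 to 5537), with quartiles of 1776.5 and 12994 bp. Within 1 kb lay 864 members, or 16.4% (15.4 to 17.4%), and within 10 kb lay 3604, or 68.2% (66.9 to 69.5%). The rule leaves out every Low peak that meets an edge of another list's peak. With a reciprocal overlap of 50% as the rule, 48.7% of the members were within 1 kb and the median gap was 1169 bp. Under that rule a member may still overlap a peak of another list, and it then counts as having no gap. These values are therefore not distances between separate sites only. At the far end, 118 members (2.23%) were over 100 kb from any region of another list, and 28 of these had a second member within 100 kb.

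Few sites lay within 10 bp of the limit of the rule. A peak of another list began or ended within 10 bp of 16 members, within 50 bp of 32 and within 100 bp of 53. On the other side of the rule, 22 Low peaks outside the set met a peak of another list by 10 bp or less. The number was 102 at 50 bp or less and 392 at 100 bp or less. A change of the rule itself moved more sites, with 8621 members under a reciprocal overlap of 50%. The 3 members closest to the limit were on chromosomes 19 and 4. A 10 bp peak on chromosome 19 (chr19:46413573-46413582) lay 1 bp from a Sublow peak in a region of all 4 lists. A 55 bp peak on chromosome 4 (chr4:116713123-116713177) lay 2 bp from a peak of High alone. A 153 bp peak on chromosome 4 (chr4:148000022-148000174) lay 2 bp from a Sublow peak, again in a region of all 4 lists. Just outside stood a 2 bp Low peak on chromosome 2 that met a Sublow peak, a 131 bp Low peak on chromosome 2 (chr2:151495931-151496061) that shared 2 bp with a High peak, and a 4 bp Low peak on chromosome 4 that met a Sublow peak.

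Median gaps were longer for members of 200 bp or more than for narrower ones. The median gap was 4702 bp for members under 150 bp (4004 to 5299), 4500 bp from 150 to 199 bp (4119 to 4861), 5619 bp from 200 to 299 bp (5196 to 6054), 6599 bp from 300 to 499 bp (5905 to 7305) and 9037.5 bp at 500 bp or more (7510 to 11417). The share within 1 kb of another list was 20.2% in the narrowest class (17.3 to 23.4%) and 8.96% in the widest (4.71 to 15.1%). Regions of all 4 lists made up 31.4% of the direct neighbours of members under 150 bp and 22.0% of those of members of 500 bp or more (17.2 to 27.5%).

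**Figure D3:**
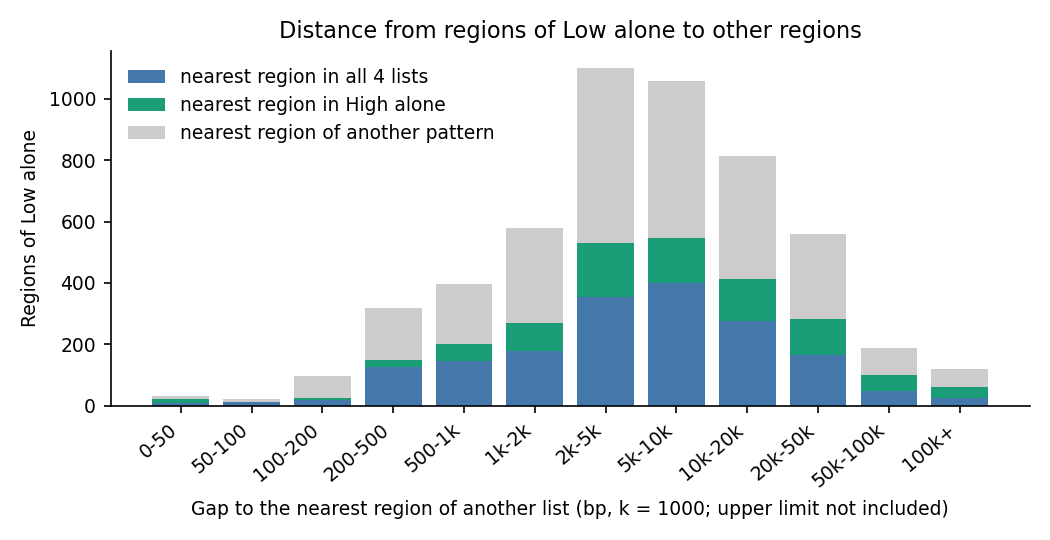
Number of regions of Low alone (vertical axis) by the gap in bp to the nearest region of another list (horizontal axis, classes of unequal size). Colours give the lists that hold that nearest region. The class from 2 to 5 kb is the fullest with 1102 regions, and 118 regions lie 100 kb or more away.

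Members of the median width are shown as examples. The first 3 in genome order with the median width of 205 bp were on chromosomes 1 and 2. The first (chr1:52096053-52096257) lay 10.5 kb from a region of Low and High alone. The second (chr1:186634691-186634895) lay 721 bp from a region of Negative and Sublow alone, and its nearest High peak was 13442 bp away. The third (chr2:119239623-119239827) lay 14.3 kb from a region that only High lacked. The 118 members over 100 kb from other lists had a median width of 232 bp, against 205 bp for all members. Of the 3 most remote, one of 233 bp on chromosome 12 (chr12:62624034-62624266) had no region of another list within 2209943 bp, one of 298 bp on chromosome 14 (chr14:83402399-83402696) none within 999 kb, and one of 203 bp on chromosome 13 (chr13:11641511-11641713) none within 708 kb.

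In the full lists, Sublow had the peak nearest to a member more often than Negative or High did. The peak closest to a member was a Sublow peak at 2527 members (47.8%), a High peak at 2096 (39.7%) and a Negative peak at 813 (15.4%), with ties counted for each list. The median gap from a member was 7475 bp to a Sublow peak (7194 to 7817), 7885 bp to a High peak (7546 to 8270) and 11235 bp to a Negative peak (10659 to 11866). A list with more or wider peaks comes closer by construction, and Sublow held 52113 peaks on 28.7 Mb, High 54395 on 25.9 Mb and Negative 45461 on 21.5 Mb. Taking the widest 22730 peaks of every list makes the lists equal in number but also redefines the members. They were then 1495 regions with a median width of 582 bp. For these the order turned round, with the closest peak in Sublow at 29.2% of members, in High at 34.8% and in Negative at 37.3%. When the region nearest to a member was classed by the lists that held it, 70.8% were held by Sublow (69.5 to 72.0%), 69.4% by High (68.1 to 70.6%) and 51.6% by Negative (50.2 to 52.9%). The shares among all regions outside the set were 67.1% for Sublow, 69.6% for High and 57.6% for Negative. The nearest region was thus a Negative one less often than the supply of such regions gives, and the interval for High included its supply. With the widest 22730 peaks of every list Negative stayed below its supply, at 60.9% against 68.6%, and Sublow was no longer above it, at 68.6% against 69.1%. With Low cut to its widest 45461 peaks Negative was again below its supply, at 49.6% against 57.6%, and High was above it, at 71.6% against 69.6%. These shares were added under both alternatives after seeing the data, and the cut of Low also redefines the members, as 1766 regions.

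Among the 864 members with a region of another list within 1 kb, that region was held by Sublow in 77.3% (74.4 to 80.1%), by High in 65.6% (62.4 to 68.8%) and by Negative in 54.2% (50.8 to 57.5%). It was a region of all 4 lists at 308 of these members, of Sublow and Low alone at 120, of High alone at 101, of all lists but Negative at 96, and of all lists but High at 83. Among the 118 members 100 kb or more from other lists, the nearest region was one of High alone at 34 (28.8%) and one of all 4 lists at 26 (22.0%). Over members at any distance these shares were 16.2% and 33.1%.

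In genome order, members stood next to some kinds of region that Low held more often than the supply of such regions gives. Other members made up 9.94% of the direct neighbours of members (9.38 to 10.5%), against 6.41% of all merged regions. Each adjacent pair of members is counted from both sides here, so this interval is too narrow. Regions of Sublow and Low alone made up 9.33% of neighbours (8.78 to 9.90%) against 7.18% of all regions, and regions that only Negative lacked 8.98% (8.45 to 9.55%) against 7.49%. Regions of Low and High alone were at 6.69% of neighbours (6.22 to 7.19%) against 5.98% of all regions. Regions that only High lacked, which Low and Sublow both hold, were below their supply, at 8.08% (7.57 to 8.62%) against 8.92%. For regions of Sublow alone, at 2.26% (1.99 to 2.56%) against 2.06%, the interval included the supply. At the other end, regions of Negative alone made up 4.59% of neighbours (4.20 to 5.01%) against 6.82% of all regions, those of High alone 15.5% (14.8 to 16.2%) against 16.6%, and those of all 4 lists 30.2% (29.4 to 31.1%) against 33.1%. The value for High alone turned round in 2 alternatives, at 14.3% of neighbours against 13.6% of all regions with the widest 22730 peaks of every list, and at 21.5% against 20.7% with Low cut to its widest 45461 peaks, while members, regions of Sublow and Low alone, of Low and High alone, of Negative alone and of all 4 lists kept their direction in these.

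These shares kept their direction along the genome for some kinds of neighbour. The share of members among neighbours was above their share of all regions on 20 of 20 chromosomes (the autosomes and X), from 5.84% against 5.84% on chromosome 19, where the values were nearly equal, to 12.8% against 6.97% on chromosome 1. Regions of Sublow and Low alone were above their share on 19 of the 20, those of Low and High alone on 14, and those of High alone on 5. Regions of Negative alone were below their share on 19 of the 20, the exception being chromosome 19 with 7.79% against 7.50%. Few neighbours of Negative alone, against 6.82% of all regions, was not particular to members. Their share was 5.20% next to regions of Sublow and Low alone, 4.20% next to Low and High alone and 4.78% next to High alone. Next to regions of Sublow alone it was 6.20%, with an interval that included 6.82%, and next to those of all 4 lists 7.67%. Nor was standing next to one's own kind confined to members. The same ratio of neighbour share to overall share, 1.55 for members, was 1.43 for regions of Sublow and Low alone, 1.76 for those of Low and High alone, 1.68 for those of Negative alone and 1.67 for those of High alone.

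**Figure D4:**
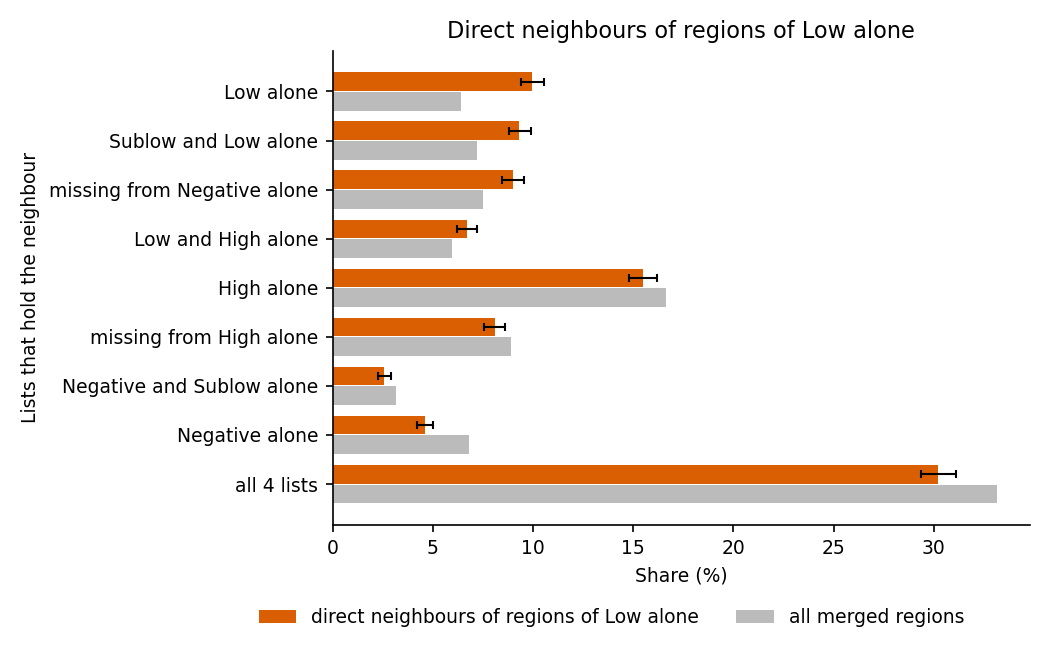
Share in percent (horizontal axis) of each kind of region among the direct neighbours of regions of Low alone (orange, with exact 95% binomial intervals) and among all merged regions (grey). Regions of Low alone stand at 9.94% against 6.41%, and regions of Negative alone at 4.59% against 6.82%. For regions of Low alone each adjacent pair is counted from both sides, which makes that interval too narrow.

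Measured against the same landmarks, members lay between both classes of region that Low shared with 1 reporter neighbour. The median gap to the nearest region of all 4 lists was 16776 bp for members (15958 to 17519), 12664.5 bp for regions of Sublow and Low alone (12125 to 13242) and 23571 bp for regions of Low and High alone (22356 to 24823). Among regions of 150 to 250 bp only, the medians were 14941.5 bp for members (n = 2878), 9881 bp for Sublow and Low alone (n = 1293) and 18112 bp for Low and High alone (n = 936), in the same order and with intervals that did not overlap. The share within 10 kb of a region of all 4 lists was 36.4% for members (35.1 to 37.7%), 43.1% for Sublow and Low alone (41.9 to 44.4%) and 27.3% for Low and High alone (26.1 to 28.6%).

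In the regions of High alone around them, members were nearer to regions of Sublow and Low alone than to those of Low and High alone. Within 50 kb either side of the centre lay on average 6.98 other regions around members, 7.89 around regions of Sublow and Low alone, 6.54 around those of Low and High alone and 8.60 around those of all 4 lists. Of the regions around members, 13.3% were of High alone, against 12.0% around Sublow and Low alone and 19.4% around Low and High alone. At least 1 region of High alone lay in this window for 54.1% of members, 53.7% of the regions of Sublow and Low alone and 64.6% of those of Low and High alone. Regions of Negative alone made up 6.30% of the surroundings of members, 6.30% around Sublow and Low alone and 5.67% around Low and High alone. The median gap to the nearest region of High alone was 43374 bp for members (41815 to 45321) and 43271 bp for regions of Sublow and Low alone (41231 to 45581), a difference smaller than either interval, and 29847.5 bp for those of Low and High alone (28217 to 31609).

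Of the members, 981 (18.6%, 17.5 to 19.6%) had another member as a direct neighbour. Of the 5283 members, 4302 had no member as a direct neighbour, 790 stood in 395 pairs, 159 in 53 runs of 3 and 32 in 8 runs of 4, the longest seen. The median gap between a member and the next was 77445 bp (74129 to 80435), and 162 members (3.07%) had another within 1 kb. On a fixed grid of 100 kb windows, 3288 windows held 1 member and 739 held 2. There were 160 windows with 3 or more, which contained 517 members (9.79%), and 6 windows with 5, the highest number.

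The runs of 4 varied in extent. The tightest covered 14405 bp on chromosome 1 (chr1:191602334-191616738), with widths from 171 to 316 bp, and the next 27543 bp on chromosome 16 (chr16:93093157-93120699), with widths from 144 to 341 bp. A run on chromosome X (chrX:132732477-132762894) covered 30418 bp and one on chromosome 1 (chr1:108509002-108547415) 38414 bp. The run on chromosome 13 (chr13:36916550-36992162) held the widest peaks, from 164 to 735 bp, over 75613 bp, and includes one of the 10 widest members. The others lay on chromosome 15 (chr15:95930848-95993895), chromosome 3 (chr3:148874948-148968379) and chromosome 8 (chr8:76253124-76696418), where the run spread over 443295 bp. A run was taken as members that follow each other directly in genome order. By definition, no peak of Negative, Sublow or High was thus listed between its first member and its last.

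The 5 windows of 100 kb with the most members differed in what else they held. On chromosome 1 (chr1:191600001-191700000), 5 of 11 regions were members and Low held 10 of the 11, Negative 2, Sublow 3 and High 5. The 5 members there, of 187, 171, 227, 316 and 246 bp, lay between positions 191602334 and 191636018, and the regions among them were regions of High alone or of Low and High alone. In a window on chromosome 3 (chr3:148800001-148900000), Low held all 8 regions and the other lists 2 each, with members of 233, 211, 226, 202 and 339 bp. In both windows Low held at least 2 times as many regions as the next list. All 5 windows were chosen for their number of members, so a lead of Low is built into the choice and carries no test.

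The other windows were rich in open regions of several lists. On chromosome 3 (chr3:98000001-98100000), 5 of 17 regions were members, and Low held 14, Negative 5, Sublow 10 and High 6. On chromosome 5 (chr5:121000001-121100000), 5 of 20 were members, and Low held 17 of the 20, Negative 6, Sublow 11 and High 10. One of these members (chr5:121013680-121013860) lay 44 bp from a region of another list. On chromosome 10 (chr10:43400001-43500000), 5 of 15 were members, and Low held 12 of the 15, Negative 4, Sublow 7 and High 8. A window on chromosome 11 (chr11:117300001-117400000) also had 5 members among 8 regions and came sixth in genome order.

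**Figure D5:**
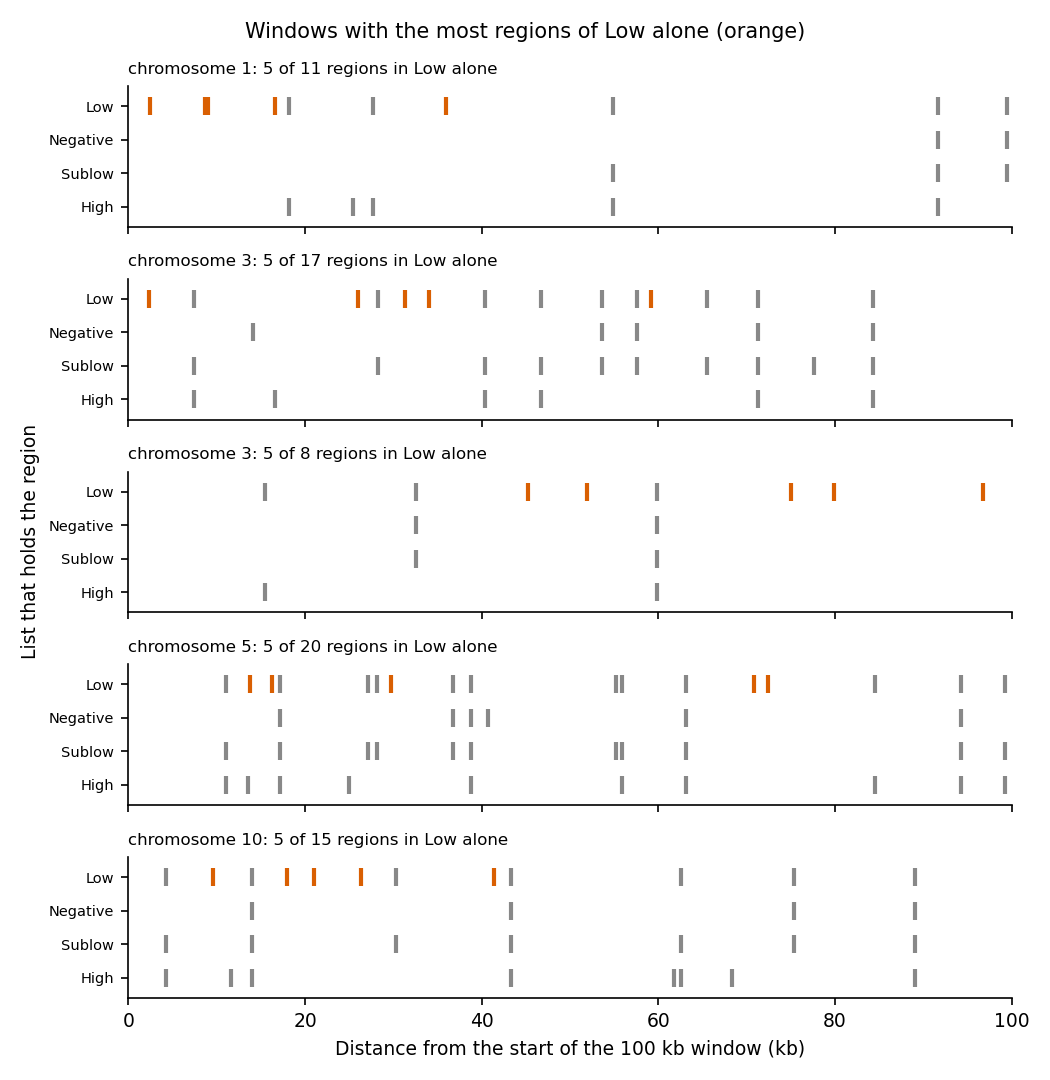
Open regions in the 5 windows of 100 kb with the most regions of Low alone, by distance from the window's start in kb (horizontal axis). Each row is a list, each mark the centre of a merged region that the list holds, and orange marks are regions of Low alone. Each window has 5 orange marks, among 11, 17, 8, 20 and 15 regions from top to bottom.

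Over 1 Mb, the stretches with the most members differed in the number of regions they held. On chromosome 1 (chr1:36000001-37000000) 14 of 84 regions were members and 38 were in all 4 lists. On chromosome 9 (chr9:14000001-15000000) 13 of 47 were members and 13 were in all lists. On chromosome 15 (chr15:101000001-102000000) 12 of 116 were members, 42 were in all lists and none was of Negative alone. The shares of members, 6.41% of regions over the genome, were chosen to be high in these stretches and carry no test.

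Chromosomes differed in the share of their Low regions that were members. Among autosomes the share was lowest on chromosome 11, at 316 of 4123 (7.66%, 6.87 to 8.52%), and chromosome 7, at 282 of 3596 (7.84%, 6.98 to 8.77%). It was highest on chromosome 14, at 229 of 2210 (10.4%, 9.12 to 11.7%), and chromosome 13, at 269 of 2602 (10.3%, 9.19 to 11.6%). Chromosome 11 was also the autosome with the most Low peaks per Mb, at 34.5, and chromosome 14 that with the fewest, at 18.1. Over the 19 autosomes, Spearman's rho between Low peaks per Mb and the member share was -0.75, as a description, since both values come from the same list. The same measure was -0.82 for regions of Sublow and Low alone and -0.52 for those of Low and High alone.

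A larger part of the members than of the regions of Low and High alone lay on the X chromosome. X held 128 members, 2.42% of the set (2.03 to 2.87%), against 2.28% of the regions of Sublow and Low alone (1.92 to 2.70%) and 1.30% of those of Low and High alone (1.00 to 1.66%). Of the Low regions on X, 11.3% were members (9.51 to 13.3%), against 9.15% on the autosomes (8.91 to 9.39%). With peaks of at least 200 bp only, 1.81% of members were on X. None of the 17 Low regions on the Y chromosome was a member.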

How the data were processed

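The deposited data are 4 consensus peak lists, 1 per population, each with chromosome, start, end and peak name. These positions in bp are the only values the authors deposited that were used, and they have no score, signal or count. Per the submitters' processing notes, the build was mm9 and the tools included MACS2 2.1.2, Bowtie2 2.3.4, deepTools 2.5.2, Picard 2.10.3 and Trim Galore 0.4.3. Their roles and settings, any Tn5 shift, and how the 3 libraries of a population were combined are not given in the sources used here. Peaks can start and end on the same base, so coordinates were read as 1-based and closed at both ends. No filter was applied and all 5283 members were used.

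Lists were merged in Python 3.11.15 with numpy 2.4.6 and pandas 2.3.3. Gaps count the bases between 2 regions. Binomial (Clopper-Pearson) intervals came from scipy 1.17.1, and intervals of medians from binomial order statistics. Figures used matplotlib 3.10.9. Merging and gap functions were tested on simulated lists. Named were the 10 widest members, the 3 nearest to and 3 farthest from another list, the first 3 of median width, and the windows with the most members, leaving out chromosome 18; the runs of 4 were added after their values were seen. The members, comparisons and rules were chosen with earlier results of these data known. The planned gene lists, motifs and base composition need an mm9 genome or annotation and were not analysed here.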

Additional observations from a re-analysis of the deposited data

How the results depend on the processing

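No paired analysis was possible because the lists pool the libraries of a population, so replicates could be neither paired nor left out. With a reciprocal overlap of 50% the members numbered 8621, 14.8% of Low peaks, with a median width of 214 bp and a median gap of 1169 bp. That gap includes members that overlap a peak of another list, counted as having no gap. Joining peaks with gaps of up to 500 bp gave a share of 8.59% and a gap of 6116 bp. Peaks of at least 200 bp gave 9.48%, 269 bp and 6504 bp. The widest 22730 peaks of each list gave 1495 members, 6.60%, 582 bp and 14403 bp. With Low cut to its widest 45461 peaks there were 1766 members, 3.92%, 314 bp and 6526 bp. Narrow members drop out of the last 3 settings by construction. On autosomes only, the number, share, width and gap stayed within their limits. The share and the gap did so in no other setting. Of 28 further values, 15 moved out of their interval, or by over 1.5 times, and 13 did not. With the number, share, width and gap counted in, 32 of 52 values moved and 20 did not. For neighbours, an alternative chosen after seeing the data, the share of High alone relative to all regions turned from -1.16 percentage points to 0.64 with the widest peaks and 0.75 with Low cut. Depth is unknown, so a closed site and a missed peak cannot be told apart.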
